A study of Mus musculus with 8 samples.

Results

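DNA repair genes were followed in R1 mouse embryonic stem cells, an established pluripotent line, after long growth in butyrate. The 52 genes were given by name and were found by the gene name of the probes on the arrays. They cover damage signalling, the repair of double-strand breaks by homologous recombination and by end joining, the Fanconi anaemia pathway, mismatch repair, nucleotide excision repair, base excision and single-strand break repair, direct reversal and telomere protection. Of these 52, 49 had at least 1 probe of that name, among 27670 named or numbered genes on the array. They held 88 probes, 80 of them tested, and all 49 genes were tested beside 17190 genes in all. Palb2, Atr and Mdc1 had no probe of that name. A pair of probes that carry an older name, which the RefSeq table lists as a synonym of Palb2, passed in opposite directions (log2 ratio −0.53 for the brighter and 0.17 for the other) and are not counted among the 49.

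The butyrate group (4 samples) was kept for 15 passages in 0.2 mM sodium butyrate and without leukaemia inhibitory factor (LIF). Butyrate is a product of bacterial fermentation that blocks histone deacetylases. The LIF group (4 samples) was grown with LIF, the cytokine that keeps these cells undifferentiated, and without feeder cells. Both groups were R1 cells on gelatin in medium with serum replacement, so LIF withdrawal and butyrate came together and cannot be told apart. Total RNA was measured on 4 two-colour Agilent arrays of 1 slide, each of which paired a butyrate sample (Cy5) with the LIF sample of equal number (Cy3). Since every array had this orientation, dye and treatment cannot be told apart either. Replicates are independent per the labels, without word of separate derivations. The p-values therefore measure only the spread among these 4 arrays, some of which may be technical, and the small number of arrays limits the precision.

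Cells mend damaged DNA by several routes, each with its own sensors and enzymes. Double-strand breaks are rejoined directly by end joining or copied from the sister chromatid by homologous recombination, while altered bases, bulky adducts and mispaired bases are cut out by base excision, nucleotide excision and mismatch repair. Mouse embryonic stem cells, which spend much of their cycle in S phase, are known for high levels of many repair proteins and for a strong use of homologous recombination.

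Most of the repair genes were modestly lower in the butyrate samples. Of the 49 genes, 32 were lower and 10 higher in butyrate by limma's test (adjusted p under 0.05), 42 in all, and 7 did not pass. Over all genes tested 75% passed, 41.7% higher and 33.3% lower, so that passing was common throughout the array. The median log2 ratio of butyrate over LIF was −0.19 for the repair genes and 0.03 for all genes, and 36 of the 49 lay below the median of all genes. On the 4 arrays the median of the repair genes was −0.25, −0.08, −0.19 and −0.26. All 49 were well above background in both channels on the 4 arrays and none was saturated.

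Most changes were under 1.5-fold. The median absolute log2 ratio was 0.31 for the repair genes and 0.25 for all genes. Of the 49 genes, only Lig4 and Wrn were at least 1.5-fold higher, and Chek2, Xrcc5, Terf1, Fancc, Parp1 and Xrcc3 at least 1.5-fold lower. Among all genes 12.9% passed and were at least 1.5-fold higher, and 7.39% at least 1.5-fold lower, 20.3% in either direction. None of the 49 reached 2-fold, against 6.93% of all genes. Chek2 did by the scanner software's log ratio (−1.16), and Chek2 and Mgmt did in the authors' value table (−1.17 and −1.01). In 34 of the 49 the levels of the 4 butyrate and 4 LIF samples did not overlap, which held for 68% of all genes. Levels below are log2 signals of 1 probe after normalization, comparable between samples but not between genes. In RNA of whole cultures, fewer cells that express a gene and less RNA per cell cannot be told apart.

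The direction of most decreases depended on how the arrays were centred. Ratios are given after loess normalization, which bends each array's ratios to a common centre along the intensity range. As an alternative, loess was left out and each array was centred on the median of all its non-control spots. Those include the spots of probes that were not tested (25661 of 41174 probes were tested). A trend of the ratio with intensity was left in. All genes tested then had a median of 0.41, and the share of higher genes among those passing was 92.4% against 55.7%. By limma 23 repair genes were higher and 0 lower (the median of the repair genes was 0.30). Of the 49 repair genes, 29 then lay below the median of all genes and 20 above it, not far from an even split. Their median was −0.10 relative to it, a smaller shift than the −0.23 after loess. Every "rose" and "fell" here is therefore relative to the centre that the loess set. The scanner software's own log ratio gave 9 higher and 33 lower, as did the authors' value table. That table followed the processed signal of the same software (lowest r 0.9996), so these counts are not separate checks.

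**Figure D1:**
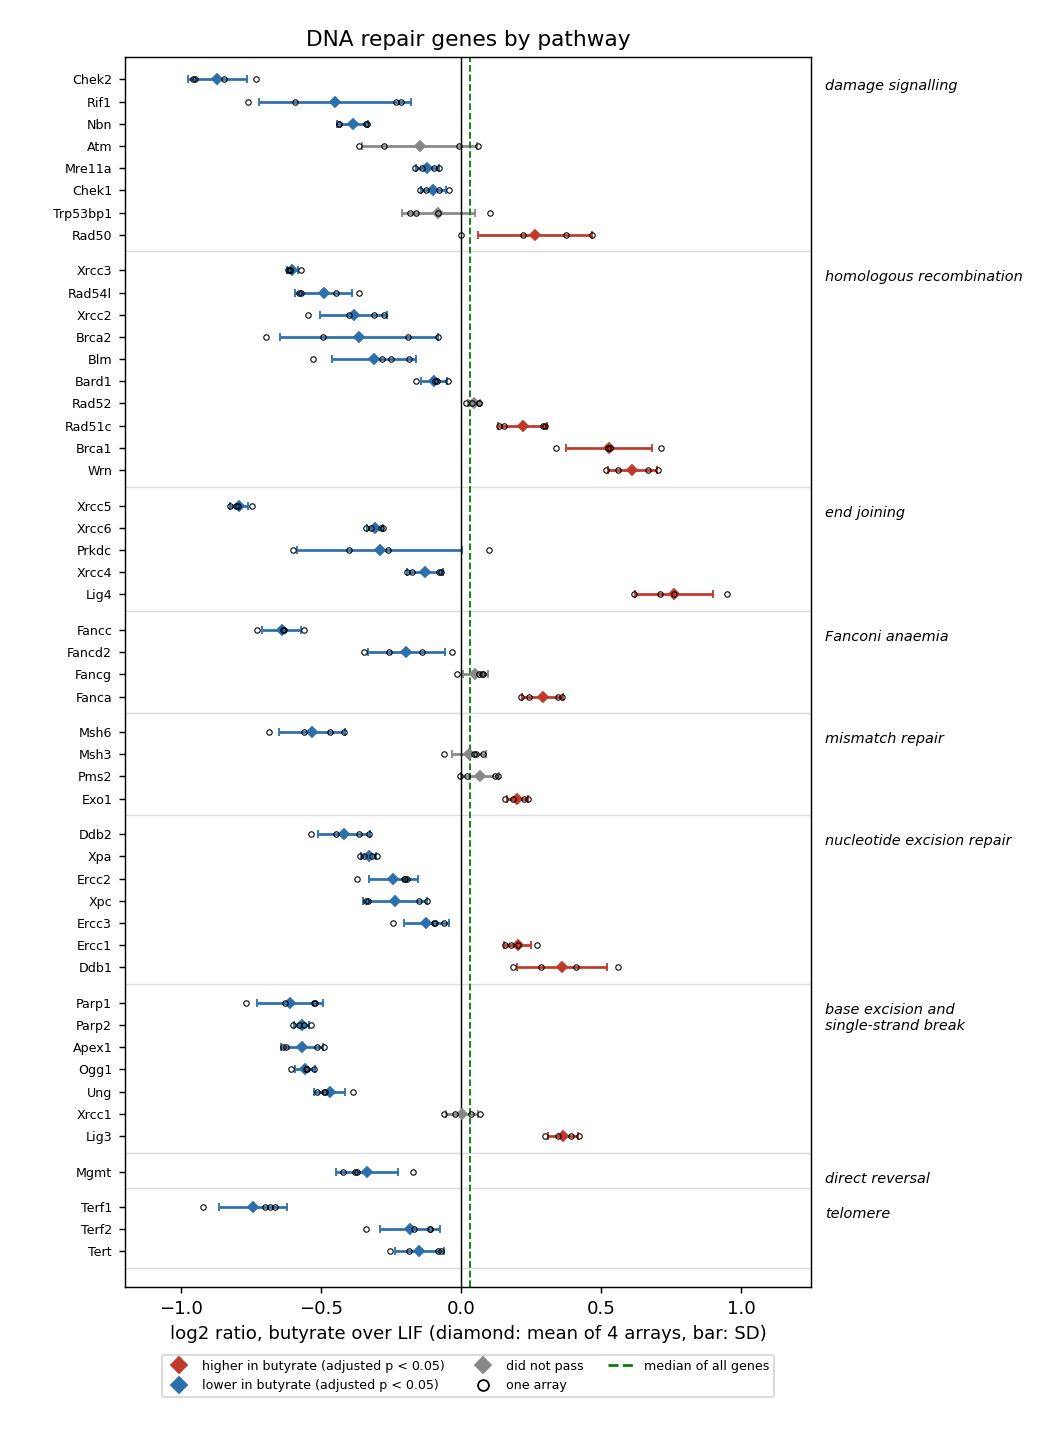
Log2 ratio of butyrate over LIF (x axis) for the 49 repair genes, grouped by pathway (rows). Open circles are the 4 arrays, diamonds the mean and bars the SD, coloured by whether the gene passed limma's test, and the dashed line is the median of all genes (0.03). Most diamonds lie left of 0, from −0.87 for Chek2, and the 10 genes that passed to the right reach 0.76 for Lig4.

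Base excision and single-strand break repair had the lowest median of the pathways with several members. Of its 7 genes, 5 fell, 1 rose and 1 did not pass, with a median log2 ratio of −0.56. Relative to the median of all genes this lay at −0.59, between −0.38 with centring on the median and −0.61 with a smaller background offset. In this pathway a glycosylase removes a damaged base, an endonuclease cuts the bare sugar, and the break is sensed by PARP enzymes and sealed by a ligase with its scaffold. The 5 genes that fell cover its first steps and its sensors (Ogg1, Ung, Apex1, Parp1 and Parp2), the 1 that rose is the ligase Lig3, and the scaffold Xrcc1 did not pass.

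The bases upstream of the annotated starts of these 6 genes are shown because these are the members of the pathway that passed, 5 in one direction and 1 in the other. They come from RefSeq, build GRCm38.p6, plus strand, 5′ to 3′, in lower case up to the base before the gene start. Capitals mark each match to an E-box (CACGTG), a GC box (GGGCGG, or CCGCCC on the other strand) or a CCAAT box (CCAAT, or ATTGG on the other strand), searched on both strands. No 2 of the marked matches overlap. The windows lie at chr1:180568641-180568890 for Parp1, chr14:50807666-50807896 for Parp2, chr14:50924699-50924948 for Apex1, chr6:113326726-113326971 for Ogg1, chr5:114130185-114130365 for Ung and chr11:82780859-82781108 for Lig3.
Parp1: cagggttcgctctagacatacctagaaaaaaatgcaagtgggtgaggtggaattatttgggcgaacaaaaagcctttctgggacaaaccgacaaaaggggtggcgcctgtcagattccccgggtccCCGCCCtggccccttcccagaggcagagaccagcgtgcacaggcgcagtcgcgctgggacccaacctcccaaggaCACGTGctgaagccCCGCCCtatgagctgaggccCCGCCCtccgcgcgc
Parp2: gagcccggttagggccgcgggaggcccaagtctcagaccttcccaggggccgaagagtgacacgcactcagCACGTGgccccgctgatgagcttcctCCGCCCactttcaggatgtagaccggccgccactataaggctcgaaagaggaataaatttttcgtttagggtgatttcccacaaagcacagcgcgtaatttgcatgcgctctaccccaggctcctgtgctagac
Apex1: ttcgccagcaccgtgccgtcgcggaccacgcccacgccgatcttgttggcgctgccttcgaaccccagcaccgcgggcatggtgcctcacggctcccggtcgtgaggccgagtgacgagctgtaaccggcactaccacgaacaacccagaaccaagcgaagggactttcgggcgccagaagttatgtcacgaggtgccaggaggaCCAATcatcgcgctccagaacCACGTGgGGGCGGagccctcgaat
Ogg1: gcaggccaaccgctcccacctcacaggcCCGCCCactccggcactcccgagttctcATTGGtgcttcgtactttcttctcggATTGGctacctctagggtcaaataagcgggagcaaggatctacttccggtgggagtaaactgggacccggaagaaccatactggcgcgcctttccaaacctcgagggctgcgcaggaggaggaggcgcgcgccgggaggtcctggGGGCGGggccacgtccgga
Ung: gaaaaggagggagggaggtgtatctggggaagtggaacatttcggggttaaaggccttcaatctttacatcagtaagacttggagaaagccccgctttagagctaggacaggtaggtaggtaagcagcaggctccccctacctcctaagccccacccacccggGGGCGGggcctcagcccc
Lig3: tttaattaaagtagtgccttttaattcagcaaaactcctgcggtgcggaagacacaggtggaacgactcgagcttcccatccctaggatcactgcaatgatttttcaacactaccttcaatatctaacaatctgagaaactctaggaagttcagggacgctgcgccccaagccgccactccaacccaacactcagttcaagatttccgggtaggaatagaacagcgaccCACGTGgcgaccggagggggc

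An E-box lies in the windows of Parp1, Parp2, Apex1 and Lig3, so it is found both upstream of genes that fell and of the 1 that rose. The shares below were counted over the first 250 bases of each window, and the window of Xrcc1, not shown, is counted too. For Parp2, Ogg1 and Ung these bases can run past the gene start, where the stretches shown end. In all, 4 of the 7 genes of the pathway hold an E-box, against 6.02% of the 32851 promoter windows in the table and 8.004% of the windows of genes tested. A GC box was found in 5 of the 7 windows, against 32.7% of all windows and 55.0% of those of genes tested. A CCAAT box was in 3 of the 7, against 33.9% and 35.02%, and in the stretches shown it is marked only for Apex1 and Ogg1. Over all repair genes, 37 of the 49 had a window. Of the 26 windows of genes lower in butyrate, 57.7% held a CCAAT box and 15.4% an E-box. Of the 9 windows of genes higher in butyrate, 22.2% held a CCAAT box and 11.1% an E-box. These matches are letters in a window and say nothing of whether a factor binds there.

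Parp1, which makes chains of ADP-ribose at DNA breaks, had log2 signals of 13.48, 13.44, 13.50 and 13.39 in the butyrate samples and 14.10, 13.96, 14.02 and 14.16 in the LIF samples. Every butyrate sample lay below every LIF sample. Parp1 fell 1.53-fold (log2 ratio −0.61 ± 0.12, SD, n = 4 arrays; limma adjusted p = 1.05e-05), and its second probe gave −0.64. Parp2, which shares that role, stood at 10.98, 10.99, 11.05 and 11.03 in butyrate and at 11.58, 11.55, 11.63 and 11.56 in LIF. The groups did not overlap, and the gap was nearly the same on each array. It fell 1.48-fold (−0.57 ± 0.03; limma adjusted p = 1.87e-06), and a second probe gave −0.45.

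Apex1, the main endonuclease at sites that have lost a base, had signals of 12.86, 12.98, 13.07 and 12.94 in butyrate and 13.50, 13.61, 13.58 and 13.43 in LIF. The 4 butyrate samples were again all lower, with a 1.48-fold decrease (−0.57 ± 0.08; limma adjusted p = 5.21e-06). Ogg1, the glycosylase for oxidised guanine, fell by 0.56 ± 0.04 on the log2 scale in its brighter probe and by 0.43 in its second. Ung, which removes uracil from DNA, fell by 0.47 ± 0.06. Lig3, a ligase of single-strand breaks that also serves mitochondrial DNA, rose 1.29-fold (0.37 ± 0.05; limma adjusted p = 3.79e-05), and a second probe gave 0.32. Xrcc1, the scaffold that binds Lig3, had a log2 ratio of 0.0046 ± 0.06 and did not pass (limma adjusted p = 0.915). With centring on the median the values of Parp2, Ogg1 and Ung came to 0.02, 0.02 and 0.07, and those of Parp1 and Apex1 to −0.10 and −0.04, none of the 5 passing.

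Among the other genes of base excision and single-strand break repair, 7 rose, 8 fell and 1 did not pass of 16 tested (median log2 ratio −0.12). The decreases of Mutyh (−0.53 ± 0.02), which removes adenine opposite oxidised guanine, and of Neil1 (−0.50 ± 0.04), another glycosylase for oxidised bases, were the largest of these. The median of this wider list lay between that of the 7 members and that of all genes.

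End joining rejoins broken ends without a template: the Ku heterodimer (Xrcc5 and Xrcc6) caps the end, the kinase DNA-PKcs (Prkdc) joins it, and Lig4 with Xrcc4 seals it. Of these 5 genes, 4 fell and 1 rose (median log2 ratio −0.29, and −0.32 relative to the median of all genes, or −0.13 with centring on the median). The ligase and the end-binding subunits moved in opposite directions. Xrcc5, the larger Ku subunit, had signals of 12.44, 12.44, 12.42 and 12.35 in butyrate and 13.27, 13.18, 13.22 and 13.14 in LIF. No butyrate sample came near a LIF sample, and the decrease was 1.73-fold (−0.79 ± 0.03; limma adjusted p = 3.87e-07). Its partner Xrcc6 stood at 11.23, 11.28, 11.31 and 11.23 in butyrate and at 11.55, 11.57, 11.59 and 11.57 in LIF. It fell by less, 1.24-fold (−0.31 ± 0.03; limma adjusted p = 6.58e-05), again with no overlap of the groups.

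Lig4, the ligase of end joining, was the member that rose most. Its signals were 9.72, 9.80, 9.84 and 9.82 in butyrate and 9.01, 9.18, 9.08 and 8.87 in LIF. All butyrate samples lay above all LIF samples, with a 1.69-fold increase (0.76 ± 0.14; limma adjusted p = 5.59e-06), and a second probe gave 0.52. Xrcc4, the partner of Lig4, fell by only 0.13 ± 0.06 (limma adjusted p = 0.0147), and this call was lost without array 1, without array 3 and without the array as a block. Prkdc averaged −0.29 ± 0.30 but lay at 0.10 on array 2 and at −0.60 on array 4, and it passed (limma adjusted p = 0.0267) only with arrays 1, 3 and 4 all included. Of 8 other end joining genes, 3 rose, 4 fell and 1 did not pass (median −0.06). The DNA polymerases Polm (0.47 ± 0.07) and Poll (0.33 ± 0.03), which fill gaps during end joining, rose most.

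Homologous recombination copies the lost sequence from the sister chromatid: Brca1 and Bard1 license the cut end, Brca2, Rad51c, Xrcc2 and Xrcc3 act in the strand exchange, and the helicases Blm and Wrn handle the intermediates. Of 10 genes tested, 6 fell, 3 rose and Rad52 did not pass. The median log2 ratio was −0.20, which was −0.23 relative to all genes and −0.16 with centring on the median. The 3 that rose were Wrn, Brca1 and Rad51c. Partners differed in direction: Rad51c rose while Xrcc3, with which it pairs, fell. Brca1 rose in its brighter probe and its partner Bard1 fell slightly, both calls with the limits given below.

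Wrn, a helicase and exonuclease whose loss in humans causes premature ageing, had signals of 8.03, 7.95, 8.01 and 7.84 in butyrate and 7.33, 7.43, 7.35 and 7.29 in LIF. The groups lay well apart, and Wrn rose 1.53-fold (0.61 ± 0.09; limma adjusted p = 4.66e-06). A second probe gave 0.37, with which the mean of both probes no longer reached 1.5-fold. Xrcc3 had 8.81, 8.80, 8.79 and 8.77 in butyrate and 9.43, 9.38, 9.40 and 9.38 in LIF. It was among the least variable of the members and fell 1.52-fold (−0.60 ± 0.02; limma adjusted p = 1.27e-06).

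Brca1 stood at 11.95, 11.99, 12.02 and 11.91 in butyrate and at 11.43, 11.28, 11.49 and 11.57 in LIF. Its brighter probe was higher in butyrate on every array, 1.44-fold on average (0.53 ± 0.15; limma adjusted p = 6.77e-05). Its dimmer probe did not show it (−0.09 ± 0.09) and did not pass, so the increase of Brca1 rests on 1 probe, and the mean of both was 0.22. Bard1 fell by 0.10 ± 0.05 (limma adjusted p = 0.0382), and that call did not hold under 7 of the alternatives. Rad51c rose by 0.22 ± 0.09. Among the genes that fell were Rad54l, a motor protein of strand invasion (−0.49 ± 0.10), Xrcc2 (−0.38 ± 0.12) and Blm (−0.31 ± 0.15). Xrcc2 had other probes at 0.06 and −0.12, and lay at −0.76 by the scanner software's log ratio.

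Brca2 fell by 0.36 ± 0.28, with ratios from −0.08 on array 2 to −0.70 on array 4, and its LIF signals (10.75 to 11.30) varied more than its butyrate signals (10.60 to 10.76). Of 18 other genes of homologous recombination, 9 rose, 5 fell and 4 did not pass, and their median of 0.10 lay above that of all genes. Rbbp8, which encodes the end-resection factor CtIP, rose 1.53-fold (0.61 ± 0.07), and Rpa2, a subunit of the protein that coats single-stranded DNA, fell by 0.53 ± 0.05.

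**Figure D2:**
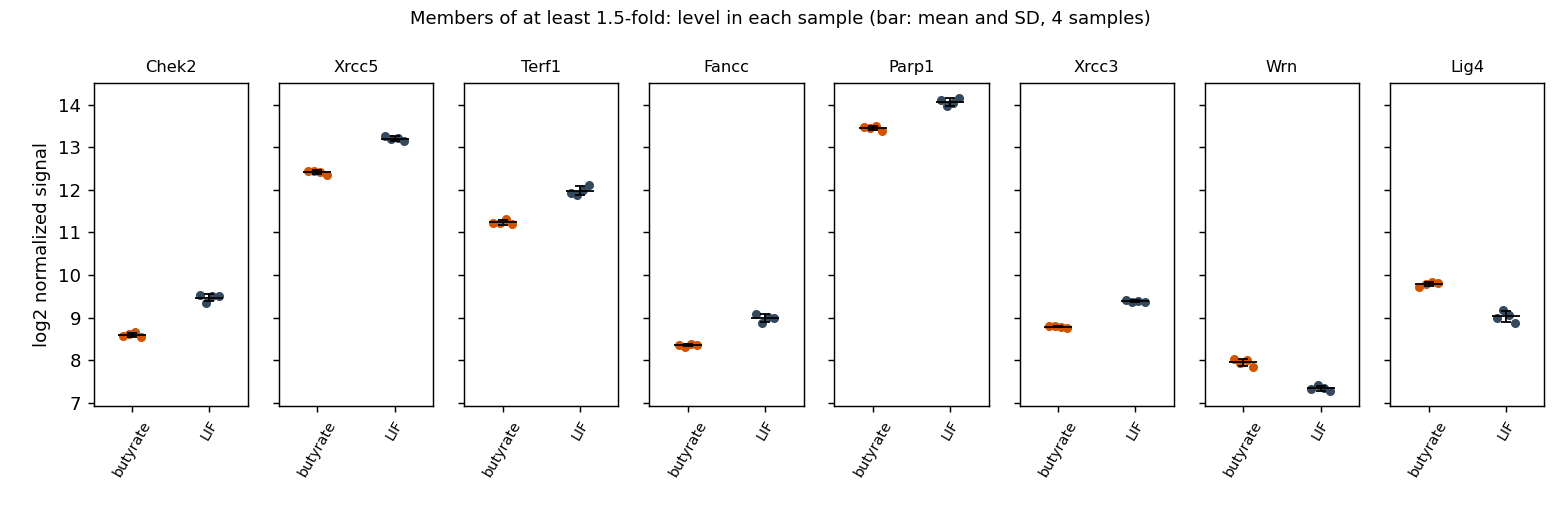
Log2 normalized signal (y axis) of the 8 genes among the 49 listed that changed at least 1.5-fold. Points are the 4 butyrate samples (orange, left) and 4 LIF samples (dark, right), with mean and SD as bars. In all 8 panels the points of the groups do not overlap: 6 genes lie lower in butyrate, and Wrn and Lig4 lie higher. These genes were chosen by the size of their change in the same samples, and 68% of all genes showed no overlap.

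Damage signalling turns a break into a halt of the cell cycle. The MRN complex (Mre11a, Rad50 and Nbn) senses the end, the kinase Atm is switched on there, and the checkpoint kinases Chek1 and Chek2 pass the signal on, while Trp53bp1 and Rif1 protect the end from resection. Of 8 genes tested, 5 fell, 1 rose and 2 did not pass. The median was −0.13, which was −0.16 relative to all genes and −0.03 with centring on the median.

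Chek2 had the largest decrease of all members. Its signals were 8.58, 8.62, 8.67 and 8.55 in butyrate and 9.53, 9.35, 9.51 and 9.50 in LIF. The groups did not overlap, and Chek2 fell 1.83-fold (−0.87 ± 0.11; limma adjusted p = 1.11e-06). A dimmer second probe gave −0.50 and passed as well. With centring on the median Chek2 lay at −0.31 and did not pass, while the median of all genes was 0.41. Chek1, the kinase of the replication checkpoint, fell by only 0.10 ± 0.05 in its brighter probe, a call lost without array 2, 3 or 4, and by 0.34 in its other probe.

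Rif1, which shields ends from resection, had signals of 11.04, 11.08, 10.93 and 10.79 in butyrate and 11.25, 11.31, 11.52 and 11.55 in LIF. The groups did not overlap, but arrays 3 and 4 differed more than arrays 1 and 2, and the decrease was 1.37-fold (−0.45 ± 0.27; limma adjusted p = 0.00225). A second probe gave −0.54. The 3 MRN genes went different ways. Nbn stood at 10.95, 10.87, 10.92 and 10.89 in butyrate and at 11.29, 11.30, 11.35 and 11.22 in LIF, with all butyrate samples lower. It fell 1.31-fold (−0.39 ± 0.06; limma adjusted p = 2.86e-05), with another probe at −0.35 and a dim one at 0.09 that did not pass. Mre11a fell by 0.12 ± 0.04, and Rad50 rose by 0.27 ± 0.20 with a ratio of 0.00 on array 4. The call of Rad50 was lost by the scanner software's log ratio (0.19) and in the authors' value table (0.17).

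Atm (−0.15 ± 0.21) and Trp53bp1 (−0.08 ± 0.13) did not pass, with signs that differed between arrays, and both passed as lower once array 2 was left out (−0.22 and −0.14). Atm also passed as lower without background correction (−0.20), by the scanner software's log ratio (−0.40) and in the authors' value table (−0.39). The second probe of Trp53bp1 passed as lower with 1 sign on the 4 arrays (−0.28 ± 0.12). Prkdc, Brca2, Rif1 and Atm, named here after their values were seen, had the largest SDs of the members (0.30, 0.28, 0.27 and 0.21), and their ratios were lower on arrays 3 and 4 than on arrays 1 and 2. Rad50, next with an SD of 0.20, was instead lowest on arrays 1 and 4. Of 16 other signalling genes, 5 rose, 8 fell and 3 did not pass (median −0.10). H2afx, the histone variant phosphorylated at breaks, fell 2.03-fold (−1.02 ± 0.07), and Rad1, a part of the clamp that marks damage, fell 1.64-fold (−0.72 ± 0.05).

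The Fanconi anaemia pathway unhooks crosslinks between DNA strands: a core complex with Fanca, Fancc and Fancg attaches ubiquitin to Fancd2. Of the 4 genes tested, 2 fell, 1 rose and Fancg did not pass, with a median of −0.07. Relative to all genes this was −0.10, and 0.11 with centring on the median, so its direction depended on the scaling. Fancc, a core subunit, had signals of 8.37, 8.32, 8.38 and 8.36 in butyrate and 9.101, 8.88, 9.01 and 8.995 in LIF. The butyrate samples were tightly grouped below the LIF samples, and Fancc fell 1.56-fold (−0.64 ± 0.07; limma adjusted p = 2.29e-06).

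Fanca, another core subunit, stood at 11.52, 11.64, 11.57 and 11.54 in butyrate and at 11.16, 11.29, 11.36 and 11.30 in LIF. The groups did not overlap in its brighter probe, which rose 1.22-fold (0.29 ± 0.07; limma adjusted p = 0.000236), but the dimmer probe gave −0.06 and did not pass. Fancd2, the protein that receives the ubiquitin, had 9.17, 9.19, 9.24 and 9.18 in butyrate and 9.51, 9.22, 9.38 and 9.44 in LIF. The groups overlapped through the LIF sample of array 2, and the decrease of 1.14-fold (−0.19 ± 0.14; limma adjusted p = 0.011) was lost as a call without array 1. Of 7 other genes of the pathway tested, 2 rose and 5 fell (median −0.36). The ubiquitin-conjugating enzyme Ube2t fell 1.67-fold (−0.74 ± 0.06), and Fance, a further core subunit, by 0.54 ± 0.09.

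Mismatch repair corrects copying errors: Msh6 and Msh3 take part in recognising the mispair, Pms2 cuts the strand and the exonuclease Exo1 removes it. It had no common direction, with 1 gene higher, 1 lower and 2 not passing of 4. The Fanconi anaemia genes were split as well (1 higher, 2 lower and 1 not passing of 4). The median of the mismatch repair genes was 0.05. That lay at 0.02 relative to all genes, at 0.23 with centring on the median and at −0.06 with the mean of all probes of a gene. Msh6 was bright in every sample, at 14.48, 14.54, 14.50 and 14.34 in butyrate and 14.90, 15.01, 15.07 and 15.02 in LIF. All butyrate samples were lower, and Msh6 fell 1.45-fold (−0.53 ± 0.12; limma adjusted p = 2.37e-05).

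Exo1 had signals of 13.02, 13.01, 13.001 and 12.95 in butyrate and 12.78, 12.82, 12.78 and 12.79 in LIF. The butyrate samples were higher by a small and steady margin of 1.15-fold (0.20 ± 0.04; limma adjusted p = 0.000873). Msh3 (0.03 ± 0.06) and Pms2 (0.07 ± 0.07) did not pass, although both dimmer probes of Msh3 passed as lower (−0.26 and −0.22). Of 5 other mismatch repair genes, 1 rose and 4 fell (median −0.21). Mlh3, a MutL homologue, fell 1.55-fold (−0.63 ± 0.15), and the sliding clamp Pcna, which also serves replication, rose by 0.39 ± 0.06.

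Nucleotide excision repair removes bulky lesions: Xpc with the Ddb1 and Ddb2 complex finds the lesion, the helicases Ercc2 and Ercc3 of TFIIH open the helix, Xpa verifies it and the nuclease with Ercc1 cuts. All 7 genes passed, 5 lower and 2 higher, where 75% of all genes passed. Their median was −0.24, which was −0.27 relative to all genes and −0.04 with centring on the median. The partners Ddb1 and Ddb2 moved in opposite directions. Ddb2, the lesion-binding subunit, had signals of 7.84, 7.84, 7.90 and 7.86 in butyrate and 8.29, 8.17, 8.26 and 8.40 in LIF. The groups did not overlap, and Ddb2 fell 1.34-fold (−0.42 ± 0.09; limma adjusted p = 4.76e-05), or −0.74 by the scanner software's log ratio.

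Ddb1, an adaptor of ubiquitin ligases with many substrates, stood at 13.16, 13.28, 13.28 and 13.27 in butyrate and at 12.98, 12.72, 12.87 and 12.98 in LIF. It rose 1.28-fold (0.36 ± 0.16; limma adjusted p = 0.000788), by 0.18 on array 1 and 0.56 on array 2. Xpa, a small zinc-finger protein of the open complex, had 8.61, 8.66, 8.68 and 8.61 in butyrate and 8.97, 8.96, 9.02 and 8.92 in LIF. It fell 1.26-fold with little spread (−0.33 ± 0.03; limma adjusted p = 4.12e-05).

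Ercc1, part of the nuclease that cuts on the 5′ side, rose by 0.20 ± 0.05. Ercc2, Xpc and Ercc3 fell by 0.24, 0.24 and 0.12, Ercc2 lying at −0.65 by the scanner software's log ratio and the call of Ercc3 being lost without array 1, without array 3 and without the array as a block. Of 13 other genes of the pathway, 4 rose, 8 fell and 1 did not pass (median −0.28). Ercc4, which encodes XPF, the nuclease partner of Ercc1, rose 1.67-fold (0.74 ± 0.03), so that both parts of that nuclease were higher in butyrate. Gtf2h1, a core subunit of TFIIH, fell 1.60-fold (−0.68 ± 0.12).

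Mgmt, which removes methyl groups from guanine directly, was the only gene of direct reversal on the list. Its signals were near the dim end, at 6.82, 6.88, 6.80 and 6.85 in butyrate and 7.19, 7.05, 7.22 and 7.23 in LIF. All butyrate samples were lower, with a 1.26-fold decrease (−0.33 ± 0.11; limma adjusted p = 0.000302). The scanner software's log ratio gave −0.99 and the authors' value table −1.01, against −0.47 with a smaller background offset and −0.46 without background correction. The other genes of direct reversal tested, Alkbh2 (−0.60 ± 0.04) and Alkbh3 (−0.25 ± 0.09), also fell.

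Telomere ends are guarded from the repair machinery by the shelterin proteins Terf1 and Terf2, and are extended by the telomerase reverse transcriptase Tert. Terf1 and Tert fell, and Terf2 was lower in its brightest probe but not in all its probes. The median of the 3 genes is the value of Terf2 and is not given for the pathway. Terf1 had signals of 11.23, 11.21, 11.31 and 11.19 in butyrate and 11.93, 11.88, 11.99 and 12.11 in LIF. The groups were well apart, and Terf1 fell 1.67-fold (−0.74 ± 0.12; limma adjusted p = 3.92e-06).

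Terf2 stood at 9.20, 9.35, 9.34 and 9.33 in butyrate and at 9.53, 9.46, 9.51 and 9.44 in LIF for its brightest probe (−0.18 ± 0.11; limma adjusted p = 0.00768). Its direction is not settled, because of its 4 probes a second was lower (−0.11) and the other two higher (0.29 and 0.24), all passing singly, and their mean was 0.06. Tert, the catalytic subunit of telomerase, had 8.23, 8.22, 8.26 and 8.18 in butyrate and 8.49, 8.29, 8.34 and 8.37 in LIF. The groups did not overlap, the decrease was 1.11-fold (−0.15 ± 0.09; limma adjusted p = 0.0128), and the call was lost without array 1. Of 6 other telomere genes, 2 rose, 1 fell and 3 did not pass (median −0.02). Dkc1, the pseudouridine synthase that stabilises the telomerase RNA, fell 1.97-fold (−0.98 ± 0.11), and the shelterin protein Terf2ip rose by 0.51 ± 0.09.

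Of 9 genes of translesion synthesis, by which special polymerases copy past damage, 4 rose, 4 fell and 1 did not pass (median −0.17). The polymerase Polk rose most (1.75-fold, 0.80 ± 0.07), followed by Ube2b, a ubiquitin-conjugating enzyme (0.49 ± 0.05). Over all 100 other repair genes tested, 37 rose, 49 fell and 14 did not pass, and their median of −0.11 lay between that of the 49 listed genes and that of all genes.

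**Figure D3:**
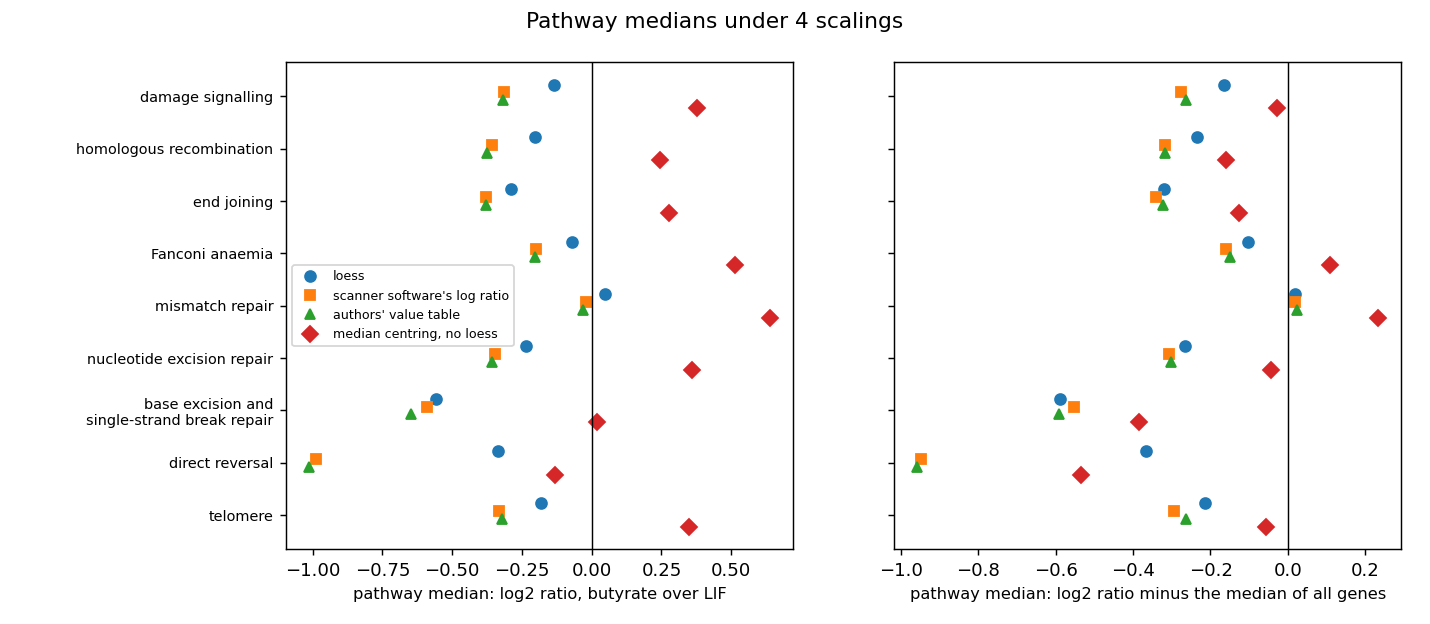
Median log2 ratio of butyrate over LIF for each repair pathway (rows) under 4 ways of scaling the arrays, as measured (left) and minus the median of all genes (right). The row of direct reversal is Mgmt alone, and that of telomere genes holds Terf2, whose probes passed in opposite directions. With centring on the median all but 1 of the pathway medians lie right of 0 in the left panel. In the right panel base excision and single-strand break repair stays between −0.38 and −0.59 and mismatch repair between 0.02 and 0.23.

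Several members had more than 1 tested probe, which gives a second measure of the same gene in the same RNA. Of 24 such genes, all tested probes passed in 1 direction for 12, namely Chek2, Parp1, Parp2, Ogg1, Rif1, Brca2, Xpc, Xrcc4, Chek1, Lig3, Lig4 and Wrn. The same share was not counted over all genes, of which 75% passed by their brightest probe. Terf2 was the 1 gene with probes that passed in opposite directions. In the other 11 at least 1 probe did not pass, and for Brca1, Fanca, Nbn, Xrcc2, Fancg and Msh3 a probe that did not pass had a sign opposite to one that passed. Which transcripts these probes read was not tested, since the probe sequences were not used here.

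**Figure D4:**
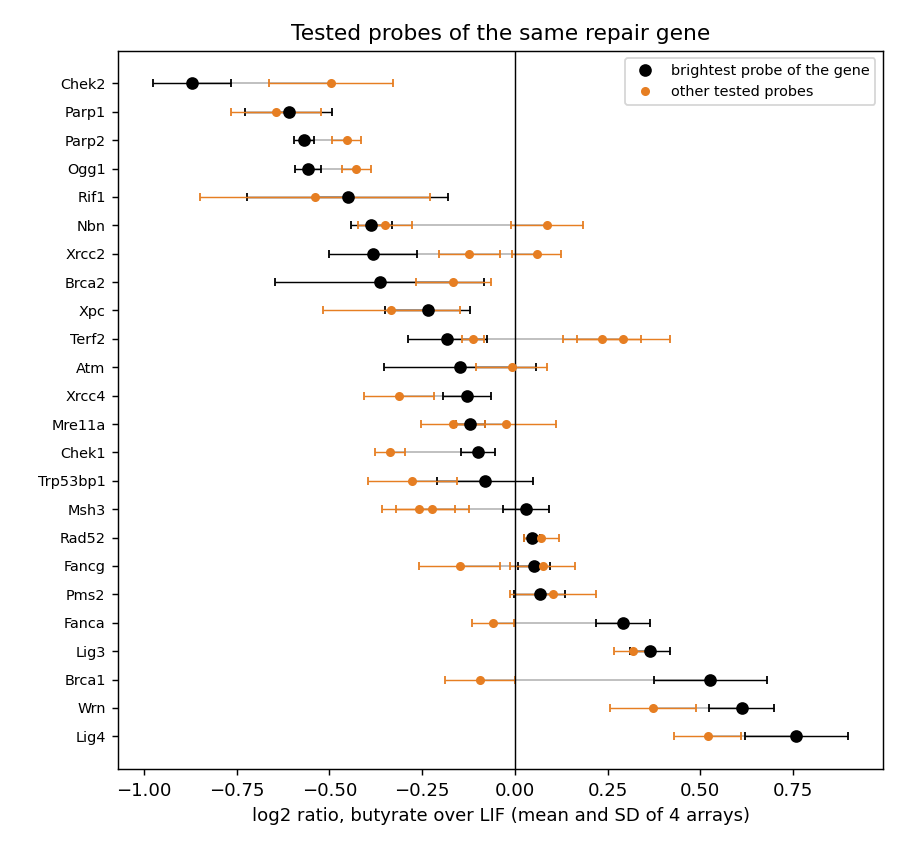
Log2 ratio of butyrate over LIF (mean and SD of 4 arrays) for every tested probe of the 24 repair genes with several, with the brightest probe in black and the others in orange. The probes of Parp1, Lig3 and Rif1 lie close together, whereas those of Brca1, Fanca, Nbn and Terf2 lie on both sides of 0.

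Most of the genes that rose lie on 3 chromosomes. Of the 10, 8 lie on chromosomes 8 (Lig4, Wrn and Fanca), 11 (Brca1, Rad50, Rad51c and Lig3) and 19 (Ddb1), and the others are Exo1 on chromosome 1 and Ercc1 on chromosome 7. Of the 9 repair genes tested on chromosomes 8, 11 and 19, 8 were higher and 1, Terf2, was lower in its brightest probe, with other probes higher, whereas of the 40 on other chromosomes 2 were higher, 31 lower and 7 did not pass. The genes of these chromosomes as a whole were shifted too. These are the 3 chromosomes with the highest medians in these same ratios, so their contrast with the others is not an independent test. Their median log2 ratios were 0.29 on chromosome 8, 0.21 on 11 and 0.18 on 19, which is 0.27, 0.19 and 0.16 above the median of the other autosomes. Of all genes there, 62.4% were higher and 16.7% lower, against 38.1% and 38.0% elsewhere.

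Of the other repair genes, 19 of 21 were higher on these 3 chromosomes and 18 of 79 elsewhere. The ratios of Fanca (0.29), Rad51c (0.22) and Rad50 (0.27) were close to the median of their own chromosome. Those of Lig4 (0.76), Wrn (0.61), Brca1 (0.53), Lig3 (0.37) and Ddb1 (0.36) lay further above it. These are values of the brightest probe, and the dimmer probes of Brca1 (−0.09) and Fanca (−0.06) lay below the median of their chromosome. Copy number was not measured, and its part in these values was not tested.

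**Figure D5:**
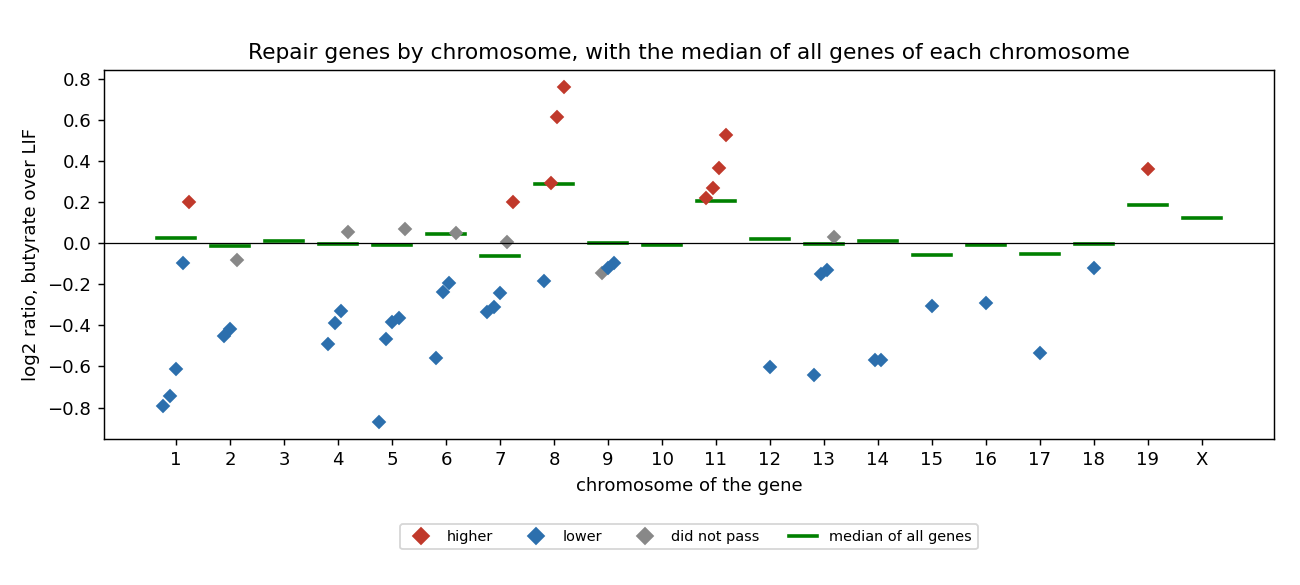
Log2 ratio of butyrate over LIF (y axis) of each repair gene by its chromosome (x axis), coloured by whether it passed, with green bars for the median of all genes of the chromosome. The bars of chromosomes 8, 11 and 19 stand at 0.29, 0.21 and 0.18, and 8 of the 10 genes that rose lie on these chromosomes.

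Markers of cell types also differed between the groups. All 9 embryonic stem cell markers tested were well above background in both groups on every array, and Dppa5a was saturated in both. Of the 8 others, 6 were lower and 1, Nanog, higher in butyrate (median −0.44). Their mean log2 signal was 12.07 to 12.20 in the butyrate samples and 12.67 to 12.72 in the LIF samples. Of the trophoblast markers all 9 tested were higher, Krt8 and Krt18 with saturated butyrate signals. The other 7 had a median of 2.53 and a mean signal of 10.01 to 10.11 in butyrate and 7.86 to 8.32 in LIF, while Elf5 failed the background criterion in LIF and Tpbpa was not tested. Of 9 fibroblast markers, 7 were higher and 2 lower (median 1.31), at 9.79 to 9.82 in butyrate and 8.31 to 8.51 in LIF, while Dcn failed that criterion in LIF and Lum was not tested.

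Genes of S phase and proliferation, with which many repair genes rise and fall, were higher for 4 and lower for 8 of 17, with a median of −0.05 and a mean signal of 13.19 to 13.25 in butyrate and 13.24 to 13.28 in LIF. The part of the change in cell state or in cycling in the values of the repair genes was not tested. The median signal over all spots was 110.0 to 111.4 in the butyrate channel and 62.8 to 66.0 in the LIF channel.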

How the data were processed

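RNA of 8 samples was hybridised to 4 two-colour arrays, scanned and read with Agilent Feature Extraction 9.1, per the submitters' processing notes. From the deposited scanner files the mean and local background intensity of each spot were taken in both channels. Their log10 ratio of Cy5 over Cy3 was already corrected for background and dye by that software, per the file headers. The authors' value table is in log2 units. Its columns followed the log2 processed signal of their own channel (lowest r 0.9996) and shared a median of 6.487.

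Background correction (normexp, offset 50), loess within arrays (control spots at weight 0) and the fit were run in limma 3.58.1 under R 4.3.3. Of 45018 spots per array 43379 were not controls, and 14 outlier spots over the 4 arrays were set missing. Spots of a probe were averaged. A probe was tested where 3 or more of the 4 arrays had it well above background in 1 of the channels, and the brightest tested probe stands for a gene. The log2 ratios of butyrate over LIF were tested against 0 by lmFit and eBayes. Benjamini-Hochberg adjustment ran over 17190 genes. Levels per sample are channel signals after loess and Aquantile. The array is thus the block: same-numbered samples share an array, and their deviations from the group means correlated at 0.16 to 0.31, other numbers at −0.21 to 0.10. With 1 slide in all, no batch could be tested.

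The repair genes, the further pathway lists and the marker lists were chosen with earlier results of these data known. Values per sample are given for the 3 members of each pathway with the largest change that passed with 1 sign on the 4 arrays, and for members of at least 1.5-fold. From each pathway's other genes, the 2 with the largest change that passed are named. Names and chromosomes come from RefSeq tables (GRCm38.p6). On simulated ratios of butyrate against LIF over 17190 genes, 25 of 25 genes raised 2-fold and 21 of 25 lowered 2-fold were recovered, 9 and 8 of 25 at 1.5-fold, 3 and 1 at 1.2-fold, 0 and 1 at 1.1-fold, and 5 of 16990 genes left unchanged were called. The simulation left nearly all genes unchanged and set its own noise and dye bias, whereas 75% of genes passed in these data. Its shares are therefore not the recovery or error rates of the calls given above. It does not bear on how the loess centred these arrays. Python 3.11.15 and matplotlib 3.10.9 drew the figures.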

Additional observations from a re-analysis of the deposited data

Results flagged for a closer look

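In 3 of the 49 repair genes 1 of the 4 arrays stood apart from the other arrays by Dixon's gap test. Chance flags about 1 in 20 groups. Terf1 had a log2 ratio of −0.92 on array 4, against −0.70 to −0.66 on the others. Ercc2 had −0.37 on array 1, against −0.20 to −0.19. Fancg, which did not pass, had −0.013 on array 4, against 0.07 to 0.08. No library was left out for this.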

How the results depend on the processing

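The count of 42 repair genes passing was 36 to 43 with each array left out in turn (26 to 33 lower, 10 higher each time). With no replicate block it was 39 (10 higher and 29 lower), the calls of Bard1, Xrcc4 and Ercc3 being lost, and with a random replicate block 41, Bard1 being lost. With each probe tested singly 45 genes had a passing probe. Centring each array on its median without loess moved most: 23 passed, 23 higher and 0 lower. The log2 ratio then turned positive for Atm (0.30), Chek1 (0.50), Trp53bp1 (0.50), Rif1 (0.14), Nbn (0.20), Mre11a (0.45), Brca2 (0.23), Bard1 (0.23), Rad54l (0.10), Xrcc2 (0.076), Blm (0.26), Xrcc4 (0.43), Xrcc6 (0.28), Prkdc (0.23), Fancd2 (0.38), Xpa (0.22), Xpc (0.36), Ercc2 (0.048), Ercc3 (0.45), Ddb2 (0.046), Ogg1 (0.021), Ung (0.073), Parp2 (0.017), Terf2 (0.40) and Tert (0.35). With the mean of a gene's tested probes Msh3 (−0.15), Terf2 (0.058) and Fancg (−0.0074, not passing) changed sign. The number at least 1.5-fold lower was 6, but 14 with the scanner software's log ratio, 15 with the authors' value table and 0 with centring on the median, and the number at least 1.5-fold higher was 2, but 13 with that centring and 1 without array 1 or with the mean of probes. With genes of chromosomes 8, 11 and 19 left out of the counts and no new fit, 2 were higher and 31 lower. For dim probes such as that of Mgmt the signal over background limits how well the size of a ratio is known. For the differences between settings the cause was not tested.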
